A study of Mus musculus with 12 samples.

Results

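The genes described here are 9 members of the STAT and Janus kinase families in conventional dendritic cells (cDCs) of the mouse spleen. They were taken by symbol from 55322 gene entries: the 6 transcription factors Stat2, Stat3, Stat4, Stat5a, Stat5b and Stat6, and the 3 kinases Jak1, Jak2 and Tyk2. Each symbol occurred once. RNA was measured in 12 libraries, 3 in each of 4 groups whose titles are L-cDC1 and M-cDC1 (the first subset) and L-cDC2 and M-cDC2 (the second). All 4 groups carry the same labels, spleen cDCs of the genotype Il7r-cre; Rosa26-lsl-tdTomato. In that reporter strain a cell that has expressed Il7r, or whose precursor did, becomes fluorescent. The growth protocol instead speaks of wild-type C57BL/6J mice aged 7 to 8 weeks. Neither the meaning of the letters L and M nor the use of the reporter in the sort is given in the labels, and no library is tied to an animal. P-values therefore measure the spread between these libraries, which may be technical.

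Janus kinases sit on the inner ends of cytokine receptor chains. When a cytokine brings the chains together, the kinases phosphorylate the receptor and then the STAT proteins that dock there, and paired STATs enter the nucleus and bind DNA. STAT pairs classically bind the GAS element, whereas the complex with Stat2 and Irf9 that type I and type III interferons induce binds the interferon-stimulated response element (ISRE). In cDCs these proteins relay interferons, Flt3 ligand (through Stat3), GM-CSF (through Stat5), IL-10, IL-12 and IL-4.

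The promoter windows of Stat2, Stat4 and Tyk2 are shown because Stat2 and Stat4 were lower in cDC1s than in cDC2s and Tyk2 was higher, and because the first 2 hold the motif matches found among these genes. The sequences are from RefSeq on build GRCm38.p6, each of 300 bases with 250 before the annotated start and 50 after it, read 5′ to 3′ on the gene's strand. Capitals mark a match, on either strand, to the ISRE (searched as GAAA, any 2 bases, GAAA) or to the Ets and IRF composite element, EICE (searched as GGAA, any 2 bases, GAAA).
Stat2, chr10:128270248-128270547, + strand: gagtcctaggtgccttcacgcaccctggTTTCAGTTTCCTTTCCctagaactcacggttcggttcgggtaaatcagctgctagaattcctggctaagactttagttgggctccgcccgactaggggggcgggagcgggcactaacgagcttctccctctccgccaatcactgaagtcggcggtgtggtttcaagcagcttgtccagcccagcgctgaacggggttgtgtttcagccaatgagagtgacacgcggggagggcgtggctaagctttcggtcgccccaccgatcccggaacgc
Stat4 (the second of 2 windows), chr1:52007990-52008289, + strand: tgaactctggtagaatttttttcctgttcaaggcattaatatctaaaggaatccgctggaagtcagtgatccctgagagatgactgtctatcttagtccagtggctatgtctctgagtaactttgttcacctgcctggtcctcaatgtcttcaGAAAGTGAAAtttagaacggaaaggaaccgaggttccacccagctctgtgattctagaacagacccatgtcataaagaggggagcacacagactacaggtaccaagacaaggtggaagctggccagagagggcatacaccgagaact
Tyk2, chr9:21131226-21131525, - strand: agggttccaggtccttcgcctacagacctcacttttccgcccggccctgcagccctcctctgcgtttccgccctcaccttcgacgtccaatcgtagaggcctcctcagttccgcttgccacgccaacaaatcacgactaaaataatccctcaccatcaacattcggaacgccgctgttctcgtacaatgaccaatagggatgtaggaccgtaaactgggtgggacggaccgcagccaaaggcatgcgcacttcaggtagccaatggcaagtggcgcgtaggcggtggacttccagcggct
In the Stat2 window the ISRE letters TTTCAGTTTC begin 222 bases before the start, and the EICE letters TTTCCTTTCC begin 216 bases before it, so the matches overlap. The second Stat4 window holds the ISRE letters GAAAGTGAAA from 97 bases before the start. All 9 genes had a window, 12 windows in all, of which 2 held the ISRE letters, 1 the EICE letters and 0 the GAS letters TTCNNNGAA. Among 32817 windows of all mouse genes, 3.43% held the ISRE letters, 2.72% the EICE letters and 8.29% the GAS letters. A match describes these letters only.

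Depth was 15879864 to 24498235 reads per library, as recovered from the deposited FPKM values (reads relative to the length of a gene and the depth of a library), and 10394 to 11570 genes reached 1 FPKM. The subset labels were checked against markers. The summed level of 8 cDC1 markers, among them Xcr1 and Clec9a, was 1472 to 1567 FPKM in L-cDC1 and 1474 to 1519 in M-cDC1, against 154 to 160 in L-cDC2 and 151 to 158 in M-cDC2. That of 8 cDC2 markers, among them Sirpa and Cd209a, was 13.5 to 16.8 FPKM in L-cDC1 and 14.4 to 14.9 in M-cDC1, against 756 to 887 in L-cDC2 and 881 to 1012 in M-cDC2. The L libraries also held more RNA of lymphocyte markers. The summed level of 12 B cell markers was 605 to 977 FPKM in L-cDC1 against 304 to 351 in M-cDC1, and 927 to 3425 in L-cDC2 against 352 to 377 in M-cDC2. The summed level of 8 monocyte and macrophage markers was lower in L, at 328 to 340 FPKM in L-cDC1 against 435 to 490 in M-cDC1, and 315 to 472 in L-cDC2 against 1014 to 1222 in M-cDC2.

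Stat6, which IL-4 and IL-13 activate, had the highest level of the 9 genes in every group, with means of 80.1 ± 18.7 FPKM in L-cDC1, 69.2 ± 11.5 in M-cDC1, 93.7 ± 10.0 in L-cDC2 and 94.4 ± 8.5 in M-cDC2 (SD, n = 3 each). Its libraries lay above those of every other member in all 4 groups. FPKM is scaled by gene length, here the bases of all annotated exons of a gene, so comparisons of levels between genes are approximate. The order below Stat6 differed between the subsets. In L-cDC1 it ran Tyk2, Stat3, Jak1, Stat2, Jak2, Stat5b, Stat5a, Stat4, and in M-cDC1 it was the same but for Jak1 standing above Stat3. In L-cDC2 it ran Jak1, Stat2, Stat3, Jak2, Tyk2, Stat5b, Stat4, Stat5a. M-cDC2 had Stat3 above Stat2 and Stat5b above Tyk2. Several of these neighbours were not separated. The library ranges of Tyk2, Stat3 and Jak1 overlapped from each to the next in both cDC1 groups. In both cDC2 groups the same held along Jak1, Stat2, Stat3 and Jak2, for Tyk2 with Stat5b, and for Stat4 with Stat5a. The other neighbours did not overlap.

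**Figure D1:**
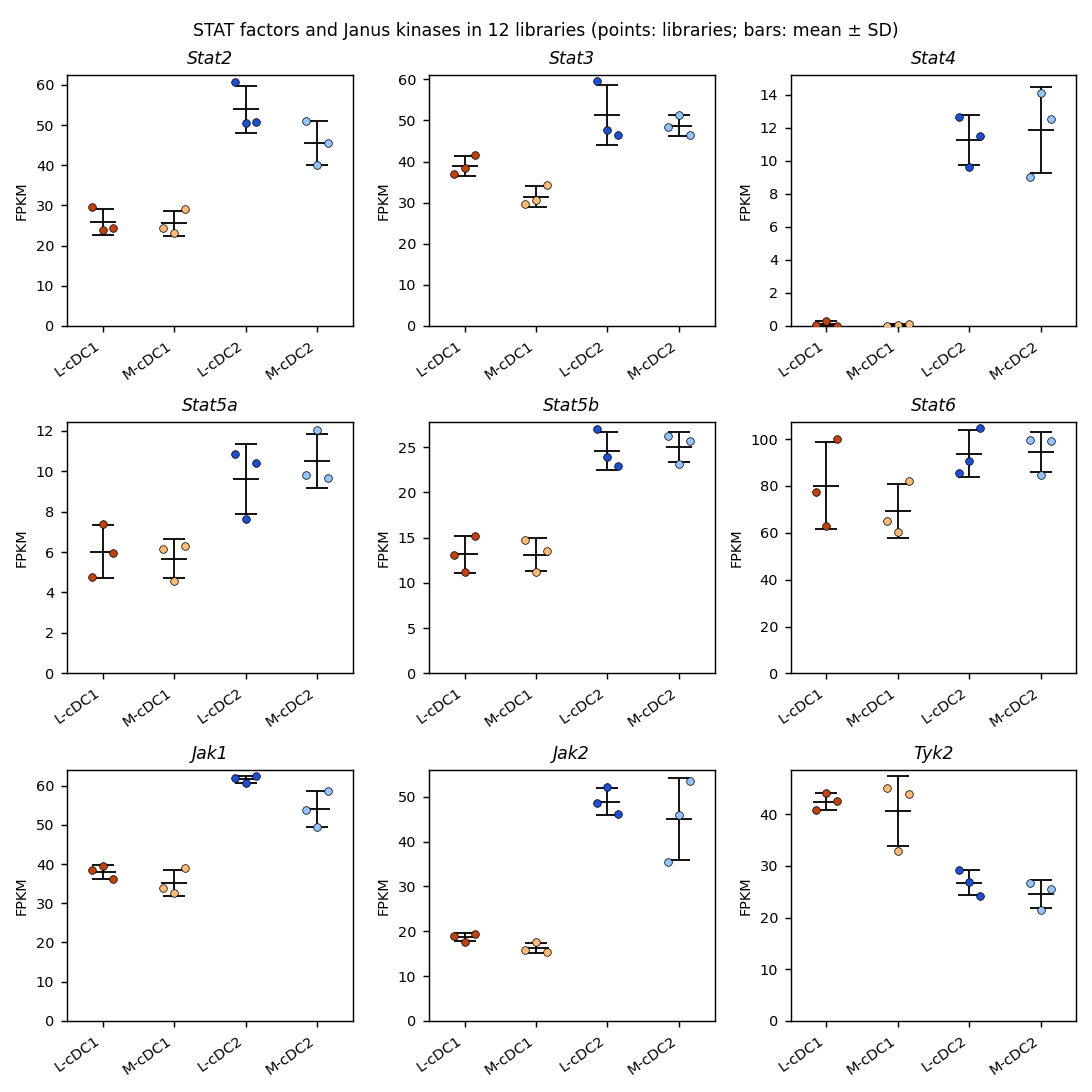
FPKM of the 9 genes in each of the 12 libraries (points), with mean and SD per group (bars), and groups along the x axis. Stat2, Stat3, Stat4, Stat5a, Stat5b, Jak1 and Jak2 are lower in every cDC1 library than in any cDC2 library, Tyk2 is higher in every cDC1 library, and the Stat6 ranges of the subsets overlap within L.

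The design sets cDC1 beside cDC2 within L and within M. Of the 9 genes, 1 was higher (Tyk2) and 7 were lower in L-cDC1 than in L-cDC2 at an adjusted p under 0.05 in limma, which fits 1 linear model to every gene. Over all 12434 genes tested 39.5% were called in either direction, 12.9% higher and 26.6% lower. In M-cDC1 against M-cDC2, 1 was higher and 8 were lower, where 38.1% of all genes were called, 12.7% higher and 25.4% lower. Stat4 is counted among the lower genes in both comparisons, although it entered the test only through cDC2 libraries and had to differ. The libraries of cDC1 and cDC2 did not overlap for 8 members within L, where this held for 48.6% of all tested genes, and for 9 within M, where it held for 51.1%. The median log2 difference of the 9 genes was -0.68 within L and -0.79 within M, and that of all tested genes was -0.19 and -0.18 in the same comparisons. The shift of all genes depends on the scaling: after median-of-ratios scaling those medians were -0.04 and -0.03, and after quantile normalization 0.02 and 0.04. Of all called genes, 32.7% were higher in cDC1 within L and 33.2% within M, and 48.7% and 48.9% after median-of-ratios scaling. The direction of each of the 9 genes was the same under those scalings. All differences are on the log2(FPKM + 1) scale. In bulk RNA, fewer cells of a type and less RNA per cell cannot be told apart.

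Stat4, the factor that IL-12 activates, showed the widest contrast. It had 0.0683, 0.311 and 0.0135 FPKM in the L-cDC1 libraries, from 5, 25 and 1 reads, against 12.6, 9.66 and 11.5 FPKM in the L-cDC2 libraries, from 1166, 815 and 808 reads. It had 0.0115, 0.0289 and 0.129 FPKM in M-cDC1, from 1, 2 and 11 reads, against 9.0, 14.1 and 12.6 FPKM in M-cDC2, from 854, 867 and 943 reads. All 6 cDC2 libraries lay far above all 6 cDC1 libraries, and Stat4 passed the filter on low values only through the cDC2 libraries. It therefore had to differ, and its p-values are given as a description. The mean of Stat4 in L-cDC1 was 0.0116 times that in L-cDC2, and in M-cDC1 0.0048 times that in M-cDC2. The log2(FPKM + 1) scale shrinks differences of values near 0. On it the difference was -3.44 ± 0.20 within L (± SE here and below, limma adjusted p = 7.6e-09). Within M it was -3.59 ± 0.20 (limma adjusted p = 4.9e-09). With limma-voom on recovered reads the log2 differences were -6.93 within L and -7.83 within M. With so few reads the cDC1 means are uncertain, and 25 of the 31 reads in L-cDC1 came from replicate 2. T and NK cells also express Stat4. The summed level of 11 T and NK cell markers was 11.4 to 21.0 FPKM in L-cDC1 and 0.504 to 0.973 in M-cDC1, where Cd3g, Trac and Klrb1c were at 0, against 40.4 to 106 in L-cDC2 and 2.08 to 2.69 in M-cDC2, where Cd3g, Trbc2 and Gzma were at 0. The markers Klre1 and Cd3d averaged 1.27 and 0.552 FPKM in M-cDC2. Stat4 averaged 11.3 FPKM in L-cDC2 and 11.9 in M-cDC2, and the part of T and NK cells in these levels was not tested.

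Stat2, the partner of Irf9 in interferon signalling, was lower in cDC1s. It had 29.6, 23.8 and 24.4 FPKM in L-cDC1 against 60.7, 50.4 and 50.7 in L-cDC2, and 24.3, 23.2 and 29.2 in M-cDC1 against 51.0, 40.0 and 45.6 in M-cDC2. No cDC1 library reached any cDC2 library. The differences were -1.03 ± 0.13 within L (limma adjusted p = 3.2e-05) and -0.81 ± 0.13 within M (limma adjusted p = 0.00029). Its gene is the one whose promoter window above holds overlapping ISRE and EICE letters.

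Stat5a and Stat5b are closely related factors that GM-CSF and the common gamma chain cytokines activate. Stat5b had 13.0, 11.2 and 15.2 FPKM in L-cDC1 against 27.0, 23.9 and 23.0 in L-cDC2, and 14.8, 11.2 and 13.5 in M-cDC1 against 26.2, 23.1 and 25.6 in M-cDC2. The subsets did not overlap, and the differences were -0.86 ± 0.14 within L (limma adjusted p = 0.00022) and -0.88 ± 0.14 within M (limma adjusted p = 0.00018). Stat5a was expressed at a lower level, 4.74, 7.36 and 5.95 FPKM in L-cDC1 against 10.9, 7.65 and 10.4 in L-cDC2, and 6.14, 4.58 and 6.31 in M-cDC1 against 9.83, 12.1 and 9.67 in M-cDC2. Here the highest L-cDC1 library came within 0.3 FPKM of the lowest L-cDC2 library, and the M groups were well apart. The Stat5a difference was -0.60 ± 0.18 within L (limma adjusted p = 0.019) and -0.79 ± 0.18 within M (limma adjusted p = 0.0039). The call within L was lost after median-of-ratios scaling (limma adjusted p = 0.080), without L-cDC1 replicate 1 (0.077), without L-cDC2 replicate 1 (0.071) and without L-cDC2 replicate 3 (0.064). The Stat5b level over the Stat5a level within a library averaged 2.28 ± 0.66 in L-cDC1, 2.33 ± 0.17 in M-cDC1, 2.61 ± 0.47 in L-cDC2 and 2.41 ± 0.43 in M-cDC2 (SD, n = 3 each). The ranges of this ratio overlapped between all 4 groups.

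Stat3, which relays IL-6, IL-10, G-CSF and Flt3 ligand, was lower in cDC1s by a smaller amount. It had 36.9, 38.3 and 41.7 FPKM in L-cDC1 against 59.6, 47.6 and 46.5 in L-cDC2, and 29.6, 30.5 and 34.3 in M-cDC1 against 48.3, 51.4 and 46.5 in M-cDC2. The libraries of the subsets did not overlap in L or in M. The difference was -0.38 ± 0.11 within L (limma adjusted p = 0.017) and -0.62 ± 0.11 within M (limma adjusted p = 0.00074). Within L the call was lost after median-of-ratios scaling (-0.19, limma adjusted p = 0.24), without L-cDC1 replicate 1 (0.055) and without L-cDC2 replicate 1 (0.085). Stat6 had 77.6, 62.8 and 99.95 FPKM in L-cDC1 against 85.6, 90.5 and 104.9 in L-cDC2, and 64.8, 60.5 and 82.3 in M-cDC1 against 99.6, 84.7 and 99.0 in M-cDC2. Its libraries overlapped within L, where it was the only member not called (-0.24, 95% interval -0.59 to 0.10, limma adjusted p = 0.25). Within M it was called at -0.45 ± 0.16 (limma adjusted p = 0.041). That call was lost after median-of-ratios scaling (limma adjusted p = 0.26) and without M-cDC1 replicate 1 (0.11), M-cDC1 replicate 2 (0.15), M-cDC2 replicate 1 (0.11) or M-cDC2 replicate 3 (0.11).

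Of the kinases, Jak2, which serves the receptors of GM-CSF, IL-12 and interferon gamma, was lower in cDC1s. It had 18.9, 17.7 and 19.5 FPKM in L-cDC1 against 48.6, 52.2 and 46.1 in L-cDC2, and 15.7, 17.6 and 15.4 in M-cDC1 against 35.5, 45.9 and 53.6 in M-cDC2. The highest cDC1 library was far below the lowest cDC2 library. The means in cDC1 were 0.382 times those in cDC2 within L and 0.361 times within M, with log2 differences of -1.34 ± 0.14 (limma adjusted p = 3.1e-06) and -1.40 ± 0.14 (limma adjusted p = 2.0e-06). Jak1, which pairs with Tyk2, Jak2 or Jak3 on many receptors, had 38.5, 39.4 and 36.1 FPKM in L-cDC1 against 61.8, 60.6 and 62.4 in L-cDC2, and 34.0, 32.5 and 39.0 in M-cDC1 against 53.7, 49.4 and 58.6 in M-cDC2. Again no libraries overlapped, and the differences were -0.68 ± 0.10 within L (limma adjusted p = 0.00011) and -0.60 ± 0.10 within M (limma adjusted p = 0.00034).

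Tyk2, which serves the receptors of type I interferon, IL-10, IL-12 and IL-23, was the only one of the 9 genes higher in cDC1s. It had 40.7, 44.0 and 42.5 FPKM in L-cDC1 against 29.1, 26.9 and 24.2 in L-cDC2, and 45.0, 32.9 and 44.0 in M-cDC1 against 26.6, 21.4 and 25.5 in M-cDC2. Every cDC1 library lay above every cDC2 library. The means in cDC1 were 1.59 times those in cDC2 within L and 1.66 times within M, with log2 differences of 0.65 ± 0.13 (limma adjusted p = 0.0016) and 0.70 ± 0.13 (limma adjusted p = 0.00097).

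Since Tyk2 and Jak2 moved in opposite directions, their proportion within a library differed more than either level. This ratio was chosen after the levels were seen and is given as a description. The Tyk2 level over the Jak2 level was 2.15, 2.48 and 2.18 in L-cDC1, 2.86, 1.86 and 2.85 in M-cDC1, 0.599, 0.517 and 0.525 in L-cDC2, and 0.750, 0.467 and 0.475 in M-cDC2. By FPKM, all 6 cDC1 libraries had more Tyk2 than Jak2, and all 6 cDC2 libraries had less. Which gene stood higher depends on the annotated lengths, 6865 bases for Tyk2 and 5030 for Jak2. In M-cDC2 replicate 1, for example, Tyk2 had 4476 reads and Jak2 had 4370. Of the summed level of Jak1, Jak2 and Tyk2, Tyk2 made up 42.8% ± 1.1 in L-cDC1, 43.9% ± 4.0 in M-cDC1, 19.5% ± 1.3 in L-cDC2 and 19.9% ± 2.6 in M-cDC2 (SD, n = 3 each). Jak2 made up 18.9% ± 1.2 in L-cDC1, 17.8% ± 3.0 in M-cDC1, 35.6% ± 1.5 in L-cDC2 and 36.3% ± 4.9 in M-cDC2. The Jak1 share differed less, at 38.3% in L-cDC1, 38.2% in M-cDC1, 44.9% in L-cDC2 and 43.8% in M-cDC2. A scaling factor per library leaves ratios and shares within it as they are.

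**Figure D2:**
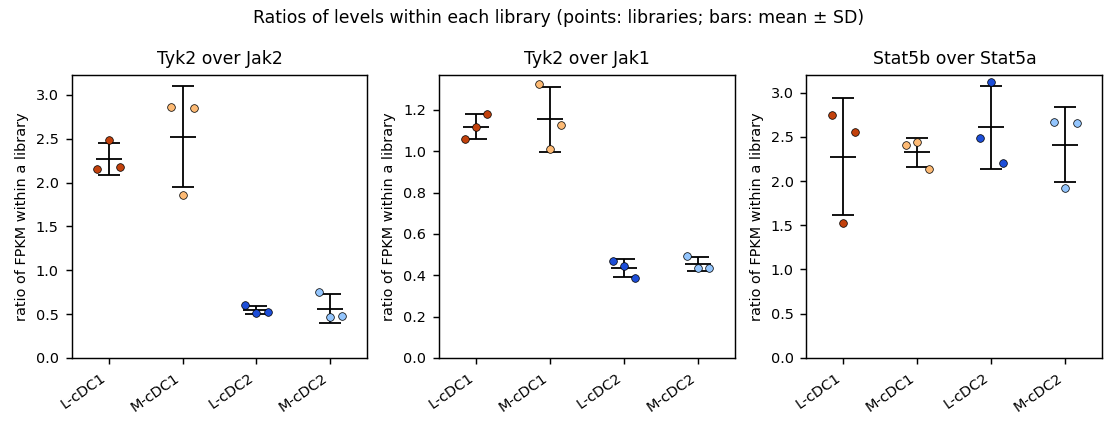
Ratios of FPKM within each library (points), with mean and SD per group (bars), for Tyk2 over Jak2, Tyk2 over Jak1, and Stat5b over Stat5a. The Tyk2 ratios lie above 1 in all 6 cDC1 libraries and below 1 in all 6 cDC2 libraries, while the Stat5b over Stat5a ratios of the 4 groups overlap. The position relative to 1 depends on the annotated gene lengths used for FPKM.

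The other comparison of the design sets L beside M within a subset. In L-cDC1 against M-cDC1, 0 of the 9 genes were called, where 0.394% of all tested genes were, 0.354% higher and 0.0402% lower. In L-cDC2 against M-cDC2, 0 of 9 were called, where 1.83% of all tested genes were, 1.04% higher and 0.788% lower. At an unadjusted p under 0.05, limma and limma-voom each named 1 member in cDC1, Stat3, where 10.3% and 9.99% of all genes fell under that p. They named 0 members in cDC2, where 10.2% and 10.4% of all genes did. The median log2 difference of the 9 genes was 0.09 in cDC1 and 0.06 in cDC2, beside 0.02 and 0.03 over all tested genes.

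Stat3 was 36.9 to 41.7 FPKM in L-cDC1 against 29.6 to 34.3 in M-cDC1, so the groups did not overlap, as in 13.9% of all tested genes. The difference was 0.30 ± 0.11 and did not pass the test (limma adjusted p = 0.38). Jak2 in cDC1, at 17.7 to 19.5 FPKM in L against 15.4 to 17.6 in M, also did not overlap and was not called (0.19, 95% interval -0.10 to 0.49). In cDC2 the L and M libraries of Jak1 did not overlap, at 60.6 to 62.4 FPKM in L against 49.4 to 58.6 in M, with a difference that was not called (0.19, 95% interval -0.03 to 0.41). Non-overlap in cDC2 was found for 16.9% of all tested genes. For the remaining members the L and M libraries overlapped in each subset. The part of the lymphocyte RNA in these L minus M values was not tested. The intervals still leave room for moderate differences: the widest in cDC2 was that of Stat4 (-0.48 to 0.36), and that of Stat2 there was -0.05 to 0.53. Whether L minus M differed between cDC1 and cDC2 was tested as an interaction. By limma or limma-voom 0 of the 9 genes were called, where limma called 0.298% of all tested genes. At an unadjusted p under 0.05 limma and limma-voom also named 0 of the 9, where 8.53% and 8.32% of all tested genes fell under that p.

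**Figure D3:**
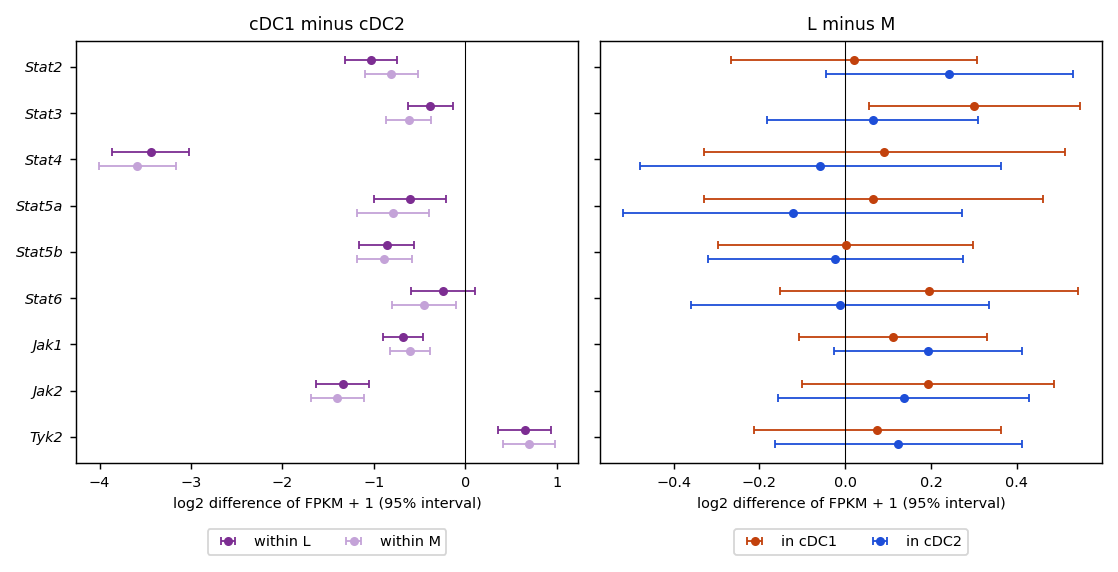
Log2 differences of FPKM + 1 with 95% intervals from limma for the 9 genes, cDC1 minus cDC2 within L and within M (left) and L minus M in cDC1 and in cDC2 (right). On the left Stat4 lies lowest at -3.44 and -3.59 and Tyk2 alone lies above 0, and on the right every interval but that of Stat3 in cDC1 spans 0.

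Outside the 9 genes, Jak3, the kinase bound to the common gamma chain, had means of 5.79 FPKM in L-cDC1 against 19.7 in L-cDC2, and 5.80 in M-cDC1 against 18.5 in M-cDC2. It was lower in cDC1s by both tests (-1.59 ± 0.18 within L, limma adjusted p = 1.0e-05, and -1.50 ± 0.18 within M, limma adjusted p = 1.8e-05).

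The receptors that use these kinases were taken by class. Their counts stand beside the 39.5% of all tested genes called within L (26.6% lower) and the 38.1% within M (25.4% lower). Of 10 common gamma chain and IL-13 receptor genes, 9 were tested, with 1 higher and 6 lower in L-cDC1 than in L-cDC2, and 0 higher and 4 lower in M-cDC1 than in M-cDC2. Il2rg, the common gamma chain on which Jak3 sits, averaged 17.8 FPKM in L-cDC1 against 232 in L-cDC2 and 15.7 in M-cDC1 against 264 in M-cDC2 (-3.64 and -3.99). Il21r, the IL-21 receptor, averaged 7.62 FPKM in L-cDC1 against 92.1 in L-cDC2 and 3.83 in M-cDC1 against 92.8 in M-cDC2 (-3.44 and -4.28). All 4 differences were called. Of 13 receptors of the gp130, IL-10 and IL-12 type, 9 were tested, with 0 higher and 6 lower within L and 0 higher and 7 lower within M. Il12rb2, the IL-12 receptor chain that recruits Stat4, averaged 8.05 FPKM in L-cDC1 against 21.8 in L-cDC2 and 7.95 in M-cDC1 against 19.8 in M-cDC2 (-1.34 and -1.22, both called). Genes expressed in 1 subset alone enter the test only through that subset and had to differ, so these counts and those of the lists that follow are a description.

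Interferon receptors did not move together. Of 5 genes tested, 2 were higher and 1 lower in cDC1s within L, and the same counts held within M. Ifnar2, a chain of the type I interferon receptor, was lower at 31.3 FPKM in L-cDC1 against 60.2 in L-cDC2 and 32.6 in M-cDC1 against 85.3 in M-cDC2. Ifngr1, the ligand-binding chain of the interferon gamma receptor, was higher at 505 FPKM in L-cDC1 against 340 in L-cDC2 and 511 in M-cDC1 against 360 in M-cDC2. Ifnlr1, of the interferon lambda receptor, was higher at 3.34 FPKM in L-cDC1 against 0.0973 in L-cDC2 and 2.35 in M-cDC1 against 0.433 in M-cDC2. Each of these differences was called within L and within M, but Ifnlr1 passed the filter on low values only through cDC1 libraries. Of 9 common beta chain and homodimeric receptor genes 4 were tested, with 1 higher and 0 lower within L and 0 higher and 1 lower within M.

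Of 17 ligand genes, 5 were tested, with 3 higher and 1 lower within L and 2 higher and 1 lower within M. Il12b, a subunit of IL-12 and IL-23, averaged 30.6 FPKM in L-cDC1 against 0.831 in L-cDC2 and 16.1 in M-cDC1 against 2.57 in M-cDC2 (4.09 and 2.26, both called). Il15 averaged 11.3 FPKM in L-cDC1 against 2.54 in L-cDC2 and 15.3 in M-cDC1 against 3.32 in M-cDC2 (1.80 and 1.91, both called). The other subunit of IL-12, Il12a, and the other chain of its receptor, Il12rb1, were too low to be tested, at no more than 0.701 and 0.529 FPKM in any library.

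Of 19 inhibitors, 18 were tested, with 0 higher and 7 lower within L, a share close to that of all tested genes, and 1 higher and 10 lower within M. Ptpn6, the phosphatase SHP-1, averaged 141 FPKM in L-cDC1 against 586 in L-cDC2 and 134 in M-cDC1 against 595 in M-cDC2 (-2.06 and -2.16, both called). Usp18, which blocks the type I interferon receptor, averaged 21.4 FPKM in L-cDC1 against 67.5 in L-cDC2 and 19.2 in M-cDC1 against 60.2 in M-cDC2 (-1.61 and -1.61, both called). Of 20 partners and known targets, 18 were tested, with 2 higher and 9 lower within L and 3 higher and 9 lower within M. Ifit3, an interferon-induced target of the complex with Stat2, averaged 0.786 FPKM in L-cDC1 against 38.9 in L-cDC2 and 0.645 in M-cDC1 against 38.8 in M-cDC2. Mx1, another interferon-induced gene, went the other way and averaged 24.8 FPKM in L-cDC1 against 12.2 in L-cDC2 and 24.5 in M-cDC1 against 12.5 in M-cDC2. Both were called within L and within M, but Ifit3 passed the filter on low values only through cDC2 libraries. Mx1 was picked as an example after its values were seen.

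**Figure D4:**
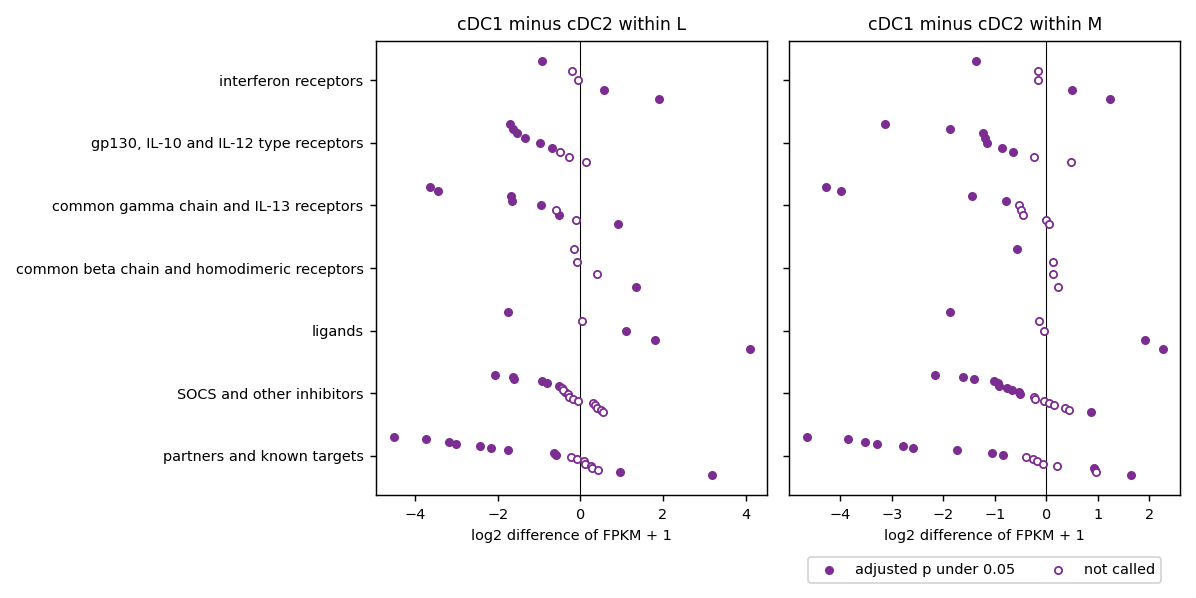
Log2 difference of FPKM + 1 for each tested gene of 7 lists of the pathway, cDC1 minus cDC2 within L (left) and within M (right), with genes called at a limma adjusted p under 0.05 filled. Called genes lie mostly below 0 in the gp130 type receptor, common gamma chain receptor, inhibitor and target lists, as do the calls over all tested genes at this scaling, and the interferon receptors and ligands lie on both sides.

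Between L and M, 6 genes of these lists were called. In cDC1, Il21r (0.84 ± 0.16, limma adjusted p = 0.045) and Il12b (0.87 ± 0.16, limma adjusted p = 0.037) were higher in L. Lymphocyte markers were higher in L-cDC1 too, as given above, and their part in these differences was not tested. In cDC2, Il2rb and Il9r were called higher in L, but both passed the filter on low values only through L libraries and had to differ. Il2rb, the beta chain of the IL-2 and IL-15 receptors that NK cells and T cells carry, had 2.63, 6.51 and 1.46 FPKM in L-cDC2 against 0 reads in all 3 M-cDC2 libraries. T and NK cell markers were higher in the same L-cDC2 libraries, as given above, and their part in this difference was not tested. Il9r had 1.38, 4.69 and 2.78 FPKM in L-cDC2 against 0.380, 0.573 and 0.209 in M-cDC2 (1.43 ± 0.31, limma adjusted p = 0.027). Csf3r, the G-CSF receptor, was lower in L-cDC2, with 2.99, 1.44 and 2.2 FPKM against 9.59, 10.6 and 4.68 in M-cDC2 (-1.49 ± 0.27, limma adjusted p = 0.0083). Csf2rb2, the IL-3 receptor beta chain of the mouse, was lower in L-cDC2, with 2.75, 2.60 and 3.94 FPKM against 7.69, 7.92 and 6.84 in M-cDC2 (-1.06 ± 0.16, limma adjusted p = 0.0026). Among markers of monocytes and macrophages, Lyz2 averaged 252 FPKM in L-cDC2 against 932 in M-cDC2, Csf1r 24.1 against 65.3 and Ccr2 1.85 against 7.35, all called. They were lower in L-cDC2 like Csf3r and Csf2rb2, and their part in those differences was not tested. Il12b was lower in L-cDC2 as well (-0.97 ± 0.16, limma adjusted p = 0.0054). The calls of Il21r and Il12b in cDC1, and of Il9r, Csf3r and Il12b in cDC2, were each lost under at least 1 other setting. With 1 library left out, Il21r and Il12b in cDC1 lost their calls in 4 and 5 of 6 runs. In cDC2, Il9r did so in all 3 runs that tested it, Csf3r in 1 of 6 and Il12b in 0 of 6.

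By position, the Stat genes lie in groups. The submitters' notes name only the human build GRCh38, so the mouse build of the positions in the deposited table is not known. In that table Stat5b (100671557 to 100741550, minus strand), Stat5a (100750177 to 100775995, plus strand) and Stat3 (100775924 to 100830366, minus strand) follow each other on chromosome 11. Stat6 (127478855 to 127496826) and Stat2 (128106428 to 128128718) lie on the plus strand of chromosome 10, 609602 bases apart. Stat5b ends 8627 bases before Stat5a begins, and Stat5a and Stat3 overlap end to end by 72 exonic bases, 1.01% of the Stat5a length and 0.756% of the Stat3 length. The neighbours differed in level all the same, with Stat5a at means of 5.68 to 10.5 FPKM and Stat3 at 31.5 to 51.3. The kit does not mark strand, so reads in such overlaps cannot be assigned to a strand. Stat5a and Stat5b are also alike in sequence: of all 50-base stretches of their GENCODE M21 transcripts, 608 occur in both, 8.21% of those of Stat5a and 11% of those of Stat5b. Reads from these stretches can be split between the genes or dropped, and the values of both genes are uncertain to that extent. No other pair of the 9 genes shared a stretch of that length in the direction of transcription. The search left out opposite strands, where Stat5a and Stat3 share the 72 bases given above. Of the Stat4 length, 26.7% is shared on the same strand with the long noncoding RNA Gm28177, whose means were 0.03 to 0.08 FPKM.

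For members whose group means spanned more than 1 on the log2 scale, namely Stat2, Stat4 and Jak2, the genes with the most alike pattern were found by Pearson r of log2(FPKM + 1) over the 12 libraries among 10421 genes. These are descriptions, since the libraries of a group share its mean. For Stat4 they were Pygl (r = 0.997), Rgl1 (r = 0.997) and Npl (r = 0.996). Pygl, a glycogen phosphorylase, averaged 0.238 FPKM in L-cDC1, 0.284 in M-cDC1, 15.5 in L-cDC2 and 18.6 in M-cDC2. For Jak2 they were Rras2 (r = 0.989), Ctnnd2 (r = 0.988) and Plekha1 (r = 0.988). For Stat2 they were 9930111J21Rik1 (r = 0.992), Cdyl2 (r = 0.983) and D7Ertd128e (r = 0.982). In each of these 9 most alike genes the cDC1 means were below the cDC2 means, a direction set by choosing them for likeness to members lower in cDC1s.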

How the data were processed

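Spleen cDC RNA went through a micro column kit, SMART-Seq HT and then Nextera XT, per the labels' protocols. Tools named in the submitters' processing notes, with no role or order, are STAR 2.7.9a, featureCounts 2.0.1, DESeq2 1.20.0, cutadapt 3.7, Trim Galore 0.6.7 and Trimmomatic 0.39. They also name the human build GRCh38, while the gene symbols are those of the mouse; of 21225 protein-coding symbols found in GENCODE M21 of GRCm38, 3.05% had a start within 100 bases of it, and 0 of the 9 members did. The authors deposited FPKM values for 55322 entries (1705 with a repeated symbol, kept apart). Multiplied by gene length, 100% of the values were whole reads within 0.01 in every library. On a gene of 1 kb, 3 reads are worth 0.122 to 0.189 FPKM, a floor that reflects counting error alone.

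The test took genes that reached 1 FPKM in 3 or more libraries of 12 (12434, all 9 members among them). A mean per group was fitted to log2(FPKM + 1) by limma 3.58.1 (R 4.3.3) with 8 residual degrees of freedom, and the variance prior followed intensity. Benjamini-Hochberg adjustment ran over all tested genes, and genes were called under 0.05. An exact permutation test of 3 libraries against 3 cannot give a two-sided p below 0.1 and was not used. Alternatives were a pseudocount of 0.1, no filter, a filter at 5 FPKM, median-of-ratios scaling, quantile normalization, no trend, limma-voom on recovered reads, the sample number as a block, the compared groups alone, and leaving out each library. From each of the 8 lists, up to 4 genes with the smallest p, every gene called in L minus M and the remaining family members were to be named, and the text describes part of these 31; 1 of them is not reported here. The members and lists were chosen with earlier results of these data known. The fitting steps were tested on simulated data.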

Additional observations from a re-analysis of the deposited data

Results flagged for a closer look

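The L minus M difference of Il12b, the subunit shared by IL-12 and IL-23, ran in opposite directions in the subsets, and the test of that difference passed the threshold. Among cDC1 libraries Il12b stood at 26.5, 26.9 and 38.5 FPKM in L and 16.9, 15.9 and 15.5 in M. Among cDC2 libraries it stood at 0.640, 0.817 and 1.04 FPKM in L and 2.72, 2.31 and 2.68 in M. L lay above M in every cDC1 library and below M in every cDC2 library. The difference between the subsets in L minus M (cDC1 less cDC2) was 1.83 ± 0.23 (SE, limma adjusted p = 0.0058). With limma-voom on recovered reads it was 2.57 and not called (adjusted p = 0.084). In L-cDC2 the values rest on 30, 35 and 37 reads.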

How the results depend on the processing

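Of the 9 genes, 8 were called between cDC1 and cDC2 within L and 9 within M, and over all alternatives these counts were 6 to 8 and 8 to 9. Stat2, Stat5b, Jak1, Jak2 and Tyk2 kept their calls and directions in both comparisons under every alternative run. Stat4 did so too and is counted above, but it passed the filter only through cDC2 libraries and had to differ. Stat3 within L also lost its call after quantile normalization (limma adjusted p = 0.053) and in limma-voom (0.18), and Stat5a within L did so as well (0.14 and 0.065). Stat6 within M lost its call with no filter (0.13), with no trend (0.074) and in limma-voom (0.22). Between L and M, 0 of the 9 genes were called in either subset or in the interaction under any alternative.

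Small L minus M differences changed sign. In cDC1, Stat2 was -0.014 after median-of-ratios scaling and -0.019 in limma-voom, Stat5a was -0.014 after quantile normalization, and Stat5b was -0.032 after median-of-ratios scaling, -0.054 after quantile normalization and -0.051 in limma-voom. Stat6 in cDC2 was 0.0033 and Stat5b in the interaction was -0.013 after quantile normalization. With each library left out, values that changed sign ranged in cDC1 from -0.075 to 0.115 for Stat2, -0.020 to 0.165 for Stat4, -0.069 to 0.202 for Stat5a, -0.104 to 0.103 for Stat5b and -0.067 to 0.153 for Tyk2. In cDC2 they ranged from -0.048 to 0.128 for Stat3, -0.230 to 0.067 for Stat4, -0.208 to 0.019 for Stat5a, -0.088 to 0.024 for Stat5b, -0.096 to 0.049 for Stat6 and -0.022 to 0.270 for Jak2. In the interaction they ranged from -0.081 to 0.126 for Stat5b, -0.077 to 0.215 for Jak2 and -0.190 to 0.041 for Tyk2. None of these was called, and the cause was not tested.

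Over all genes, the 49 calls of L minus M in cDC1 became 80 with a pseudocount of 0.1, 14 with no filter and 82 with a filter at 5 FPKM, and 24 to 102 with a library left out. The 227 calls in cDC2 became 142 with a filter at 5 FPKM and 138 to 190 with a library left out, and the 37 of the interaction became 21 with a pseudocount of 0.1, 9 in limma-voom and 9 to 38. Il21r and Il12b in cDC1 lost their calls under 6 and 5 of the 9 other settings. In cDC2, Il9r and Csf3r did so under 4 and 1 of the 8 settings that tested them, and Il12b under 2 of 9. Of all genes called between cDC1 and cDC2, 32.7% within L and 33.2% within M were higher in cDC1, and 48.7% and 48.9% after median-of-ratios scaling. With the sample number as a replicate block, 0, 0, 8, 9 and 0 of the 9 genes were called in L minus M in cDC1 and in cDC2, cDC1 minus cDC2 within L and within M, and the interaction, as without it. After the group mean of each gene was subtracted, same-numbered libraries of different groups correlated at -0.01 to 0.16 (median 0.034, 18 pairs, 3 over 0.1). Libraries with different numbers did so at -0.15 to 0.09 (median -0.018, 36 pairs, 0 over 0.1). Of 12 libraries, 11 correlated best with their own number. This is a hint of pairing from the data and not the design, so the main fit did not pair the libraries. Depth limits Stat4 in cDC1, which rests on 1 to 25 reads per library.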

Other observations

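Gm3940, a processed pseudogene that lies inside Stat4 on the opposite strand and shares 0 exonic bases with it, was at 0.122, 0 and 0 FPKM in the L-cDC1 libraries, 0.103, 0.130 and 0.105 in those of M-cDC1, 4.76, 4.67 and 4.46 in L-cDC2, and 5.86, 1.90 and 3.34 in M-cDC2. It was thus low in the same 6 cDC1 libraries as Stat4. Within M-cDC2 the library with the highest Gm3940 level, replicate 1, had the lowest Stat4 level (9.0 FPKM), and replicate 2, with the lowest Gm3940 level, had the highest (14.1 FPKM). That inverse order was not seen within L-cDC2, where replicate 1 had the highest level of both genes (4.76 FPKM of Gm3940 and 12.6 of Stat4). An order of 3 libraries is a description, and a relation between the genes was not tested. The libraries do not mark strand, so the strand of these reads was not tested.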
